A study of Arabidopsis thaliana with 12 samples.

Results

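The 6 nuclear genes for the sigma factors of the Arabidopsis plastid RNA polymerase, SIG1 to SIG6, were followed across 3 genotypes. The genes were chosen by their AGI loci (the Arabidopsis gene identifiers): AT1G64860 for SIG1, AT1G08540 for SIG2, AT3G53920 for SIG3, AT5G13730 for SIG4, AT5G24120 for SIG5 and AT2G36990 for SIG6. All 6 were on the array, out of 25665 loci. Each had 1 probe, which was well above background on all 12 arrays. The gene table used for names lists SIG1, SIG3, SIG5 and SIG6 as SIGA, SIGC, SIGE and SIGF.

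Chloroplast genes are transcribed in part by a bacterial-type RNA polymerase whose core subunits are encoded in the plastid genome. That core finds its promoters only with a sigma factor, and every sigma factor is encoded in the nucleus, so the nucleus can set which plastid genes are read. A set of nuclear-encoded polymerase-associated proteins is bound to the same core, and a separate phage-type polymerase, also nuclear-encoded, transcribes plastid genes alongside it. GLK1 and GLK2 are transcription factors that activate nuclear genes for photosynthesis and chlorophyll synthesis.

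Whole Arabidopsis thaliana seedlings of the Columbia-0 ecotype, aged 2 weeks, were profiled on one-colour Agilent arrays, with 4 arrays for each of 35S:GLK1-SRDX, the glk1 glk2 double mutant and wild type. In 35S:GLK1-SRDX (called GLK1-SRDX from here on), GLK1 is fused to the SRDX repression domain, which turns a transcription factor into a repressor, under the 35S promoter of cauliflower mosaic virus, which is active in most tissues. All plants grew on sucrose-containing MS agar under long days without further treatment. Each sample held many seedlings, and neither the number of transgenic lines nor separate cultures for the replicates are stated, so the p-values reflect only how far these samples differ from each other, and part of that may be technical.

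The array's 75th percentile of processed intensity lay between 1522 and 2480 units, and a level below is the log2 intensity relative to that percentile, so that 0 equals it. The 12 arrays lay on 3 slides. Slides 1 and 2 each held 2 arrays of glk1 glk2 and 2 of wild type, and the 4 GLK1-SRDX arrays were together on slide 3, where genotype and slide cannot be told apart. GLK2 had levels of 2.99, 3.06, 2.76 and 2.77 in GLK1-SRDX and -5.43, -5.48, -5.30 and -4.75 in glk1 glk2, against 2.51, 2.12, 1.88 and 2.58 in wild type. GLK1 had levels of 1.05, 1.11, 0.95 and 0.78 in GLK1-SRDX and -1.93, -2.37, -2.81 and -1.26 in glk1 glk2, against 0.05, 0.07, -0.12 and 0.52 in wild type. Both genes fell in glk1 glk2, with log2 differences from wild type of -7.51 for GLK2 (limma adjusted p = 5.12e-09) and -2.23 for GLK1 (adjusted p = 0.00289), while neither passed the test in GLK1-SRDX (adjusted p = 0.0538 for GLK2 and 0.0662 for GLK1). Whether the GLK1 probe also reads the transgene was not tested. The 4 leaf markers were well above background on every array, with summed linear levels (1 equals the 75th percentile) of 375 to 417 in GLK1-SRDX and 336 to 539 in glk1 glk2, against 358 to 473 in wild type. The summed level of 20 root markers was 8.24 to 12.1 in GLK1-SRDX and 6.42 to 23.4 in glk1 glk2, against 16.1 to 23.3 in wild type. Of these, 7 of 20 fell in GLK1-SRDX, beside 6.40% of all tested loci, and 0 of 20 passed in glk1 glk2, beside 3.30%. At an unadjusted p under 0.05 there were 10 of 20 in glk1 glk2, beside 19.6% of loci, and the part of this difference in the results below was not tested.

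None of the 6 sigma factor genes passed an adjusted p of 0.05 in any comparison of genotypes. In GLK1-SRDX against wild type, 0 of 6 were called where 14.3% of the 20640 tested loci were. In glk1 glk2 against wild type, 0 of 6 were called where 3.30% of loci were. In GLK1-SRDX against glk1 glk2, 0 of 6 were called where 9.27% were. With 6 genes, a count of 0 is not set apart from these shares. At an unadjusted p under 0.05 the counts were 1, 0 and 2 of 6, against 30.7%, 19.6% and 24.5% of all loci. The median log2 fold change of the 6 genes was 0.11 in GLK1-SRDX and 0.21 in glk1 glk2, each against wild type, beside medians over all loci of 0.01 and 0.00. The groups of arrays did not overlap for 1 of 6 genes in GLK1-SRDX against wild type (28.0% of loci), for 0 of 6 in glk1 glk2 against wild type (9.84%) and for 0 of 6 in GLK1-SRDX against glk1 glk2 (17.3%). These tests used limma on all 12 arrays with Benjamini-Hochberg adjustment over all tested loci.

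The precision differed between the genes. In each of the 3 comparisons the 95% interval of the fold change stayed within 2-fold in either direction for 5 of 6 genes, with SIG5 outside. It stayed within 1.5-fold for 3 of 6. These intervals are from the main fit, which does not pair arrays by replicate number. In whole seedlings, fewer cells of a type and less RNA per cell cannot be told apart.

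**Figure D1:**
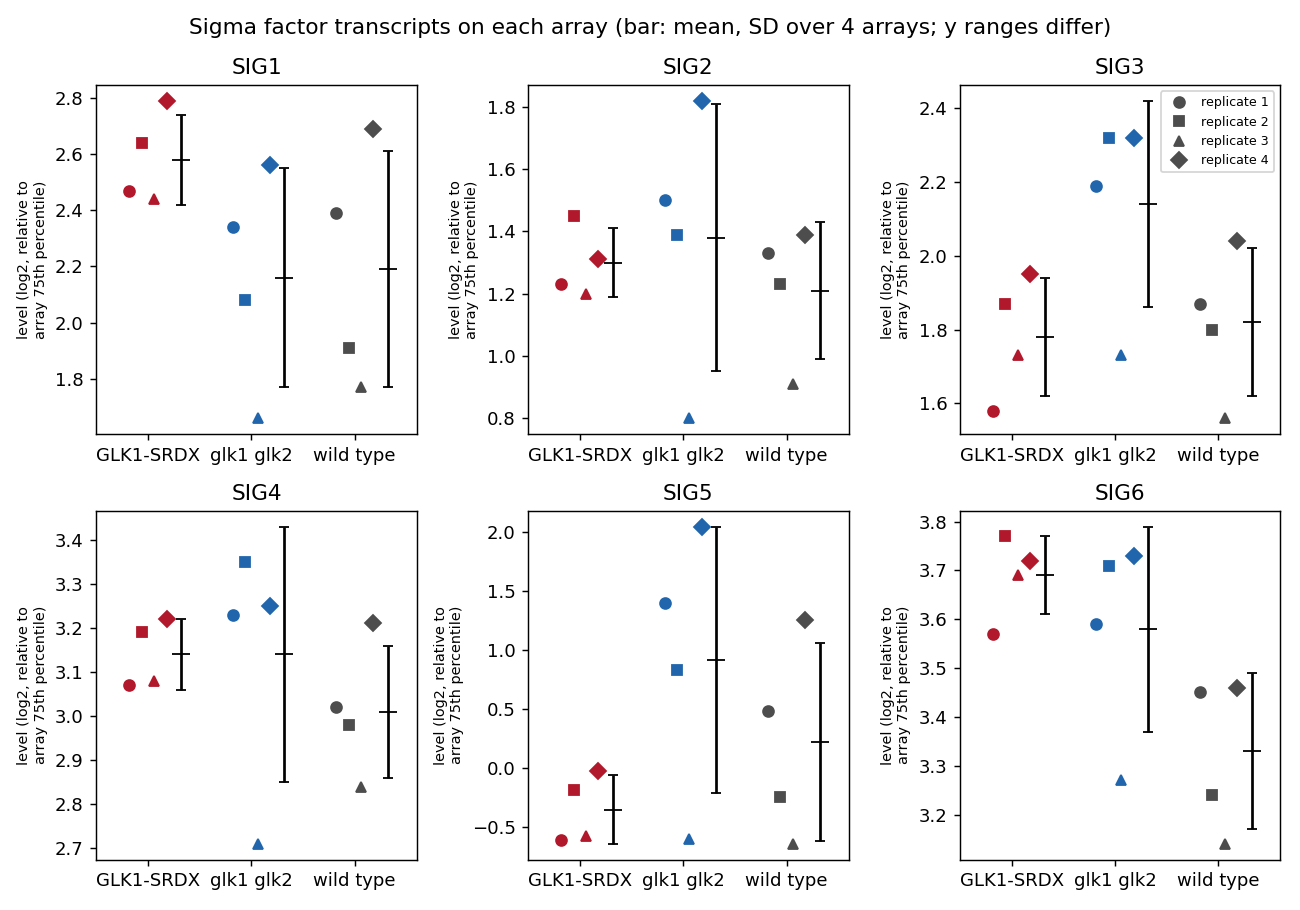
Level of each sigma factor gene on each array (log2 relative to the array's 75th percentile), with 1 panel per gene and its own vertical axis, and genotypes in the order GLK1-SRDX, glk1 glk2 and wild type. Symbol shapes mark the replicate numbers (key in the SIG3 panel) and bars are the mean ± SD of 4 arrays. Replicate 3 is the lowest array of glk1 glk2 and of wild type in all 6 panels.

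SIG6, which serves a broad set of plastid promoters in young seedlings, was the member nearest to a call. Its level was 3.57, 3.77, 3.69 and 3.72 in GLK1-SRDX and 3.59, 3.71, 3.27 and 3.73 in glk1 glk2, against 3.45, 3.24, 3.14 and 3.46 in wild type. Every GLK1-SRDX array lay above every wild-type array, while glk1 glk2 overlapped both other groups. The difference of GLK1-SRDX from wild type was 0.36 ± 0.11 on the log2 scale (SE, n = 4 each, 95% interval 0.11 to 0.61), with a limma adjusted p of 0.0589. The exact permutation p was 0.0286, the smallest that 4 against 4 arrays can give. Over 26 alternative settings the adjusted p ranged from 0.0190 to 0.186, and SIG6 passed in 7 of them. It passed with the slide as a random block (0.0436), with only the 2 genotypes in the fit (0.0310), with arrays scaled to the median (0.0389) and without glk1 glk2 replicate 3 (0.0190). The slide block cannot take the slide out of this comparison, because all 4 GLK1-SRDX arrays were on slide 3. SIG6 also passed in the 3 settings chosen after seeing the data: without replicate 4 of glk1 glk2 and wild type (0.0432), without replicate 3 of both (0.0418), and with median scaling and the replicate number as a block together (0.0237). In these 7 settings 17.0% to 28.7% of all loci were called, beside 14.3% in the main fit. In glk1 glk2 against wild type the difference was 0.25 ± 0.11 (95% interval 0.00 to 0.50, adjusted p = 0.259), and 0.30 and 0.20 within slides 1 and 2. That difference passed in 1 of 26 settings, without glk1 glk2 replicate 3 (0.35, adjusted p = 0.0381). Without replicate 3 of both genotypes it was 0.29 and did not pass (limma adjusted p = 0.0767).

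SIG2, known for the transcription of plastid tRNA genes, had similar levels in all 3 genotypes. Its level was 1.23, 1.45, 1.20 and 1.31 in GLK1-SRDX and 1.5, 1.39, 0.80 and 1.82 in glk1 glk2, against 1.33, 1.23, 0.91 and 1.39 in wild type. The GLK1-SRDX arrays lay within the range of the glk1 glk2 arrays, and all groups overlapped. The differences from wild type were 0.09 ± 0.19 in GLK1-SRDX (adjusted p = 0.802) and 0.17 ± 0.19 in glk1 glk2 (adjusted p = 0.666), and within slides 1 and 2 glk1 glk2 differed from wild type by 0.17 and 0.16. SIG2 passed under none of the 26 alternative settings in any comparison.

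SIG1, known for promoters of photosystem genes, averaged 2.58 ± 0.16 in GLK1-SRDX and 2.16 ± 0.39 in glk1 glk2, against 2.19 ± 0.42 in wild type (SD, n = 4 each). Its level was 2.47, 2.64, 2.44 and 2.79 in GLK1-SRDX and 2.34, 2.08, 1.66 and 2.56 in glk1 glk2, against 2.39, 1.91, 1.77 and 2.69 in wild type. In glk1 glk2 and in wild type its level was highest on replicate 4 and lowest on replicate 3, and the groups overlapped. The differences were 0.39 ± 0.23 for GLK1-SRDX against wild type (adjusted p = 0.269) and -0.03 ± 0.23 for glk1 glk2 against wild type (adjusted p = 0.956). Only with median scaling and the replicate number as a block together, chosen after seeing the data, did SIG1 pass in GLK1-SRDX (0.58, adjusted p = 0.0404, range over the 26 settings 0.0404 to 0.505). That fit called 28.7% of all tested loci.

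SIG3, whose known target is the plastid gene psbN, was measured at 1.58, 1.87, 1.73 and 1.95 in GLK1-SRDX and 2.19, 2.32, 1.73 and 2.32 in glk1 glk2, against 1.87, 1.80, 1.56 and 2.04 in wild type. Replicates 1, 2 and 4 of glk1 glk2 lay above every array of the other genotypes, and replicate 3 lay among them. The difference of glk1 glk2 from wild type was 0.32 ± 0.15 (95% interval -0.01 to 0.65, unadjusted p = 0.0563 and adjusted p = 0.270 by limma), and it was 0.42 and 0.23 within slides 1 and 2. GLK1-SRDX differed from wild type by -0.04 ± 0.15 (adjusted p = 0.902). The difference of GLK1-SRDX from glk1 glk2 was -0.36 ± 0.15, with an unadjusted p of 0.0375 and an adjusted p of 0.171.

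The SIG3 calls turned on leaving out glk1 glk2 replicate 3. Without glk1 glk2 replicate 3, SIG3 was higher in glk1 glk2 than in wild type by 0.46 (adjusted p = 0.0360) and lower in GLK1-SRDX than in glk1 glk2 by 0.49 on the log2 scale (adjusted p = 0.0274). Those fits called 15.6% and 13.0% of all loci, beside 3.30% and 9.27% with all arrays. Replicate 3 was the lowest array in wild type as well, and the first of those fits kept it. Without replicate 3 of both genotypes, SIG3 differed between glk1 glk2 and wild type by 0.37 and did not pass (limma adjusted p = 0.0692). That fit called 8.26% of all loci. Over the 26 settings the adjusted p of glk1 glk2 against wild type ranged from 0.0360 to 0.749, and that of GLK1-SRDX against glk1 glk2 from 0.0173 to 0.833.

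SIG4, known for the promoter of ndhF, a gene of the plastid NADH dehydrogenase-like complex, had the closest group means of the family. Its level was 3.07, 3.19, 3.08 and 3.22 in GLK1-SRDX and 3.23, 3.35, 2.71 and 3.25 in glk1 glk2, against 3.02, 2.98, 2.84 and 3.21 in wild type. The groups overlapped, and the lowest array was again replicate 3 in glk1 glk2 and in wild type. The differences from wild type were 0.13 ± 0.14 in GLK1-SRDX (adjusted p = 0.567) and 0.12 ± 0.14 in glk1 glk2 (adjusted p = 0.648), while GLK1-SRDX and glk1 glk2 differed by 0.00 (adjusted p = 0.997). SIG4 passed in 1 of 26 settings, in GLK1-SRDX against wild type, with median scaling and the replicate block together (0.31, adjusted p = 0.0442, range 0.0442 to 0.799). That fit called 28.7% of all tested loci.

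SIG5 directs transcription from the light-responsive psbD promoter, is induced by blue light and stress, and carries circadian timing from the nucleus to the plastid. Its level was -0.61, -0.18, -0.57 and -0.02 in GLK1-SRDX and 1.40, 0.83, -0.60 and 2.05 in glk1 glk2, against 0.49, -0.24, -0.64 and 1.26 in wild type. The GLK1-SRDX arrays were all below 0, and both other genotypes held arrays above and below it. The spread within genotypes was 0.83 (pooled SD, log2), above that of 95.4% of tested loci, whose median was 0.21. SIG5 differed by -0.56 ± 0.54 in GLK1-SRDX (95% interval -1.75 to 0.62, adjusted p = 0.515) and by 0.70 ± 0.54 in glk1 glk2 (95% interval -0.48 to 1.89, adjusted p = 0.498), each against wild type. Between GLK1-SRDX and glk1 glk2 the difference was -1.27 ± 0.54 (95% interval -2.45 to -0.08), with an unadjusted p of 0.0383 and an adjusted p of 0.173 by limma.

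For SIG5 too, glk1 glk2 replicate 3 decided the call. Without it, SIG5 was lower in GLK1-SRDX than in glk1 glk2 by 1.77 on the log2 scale (adjusted p = 0.0251, range over the 26 settings 0.0181 to 0.341). Within slides 1 and 2, SIG5 was higher in glk1 glk2 than in wild type by 0.99 and 0.42. Against wild type, SIG5 passed in no setting in either genotype.

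**Figure D2:**
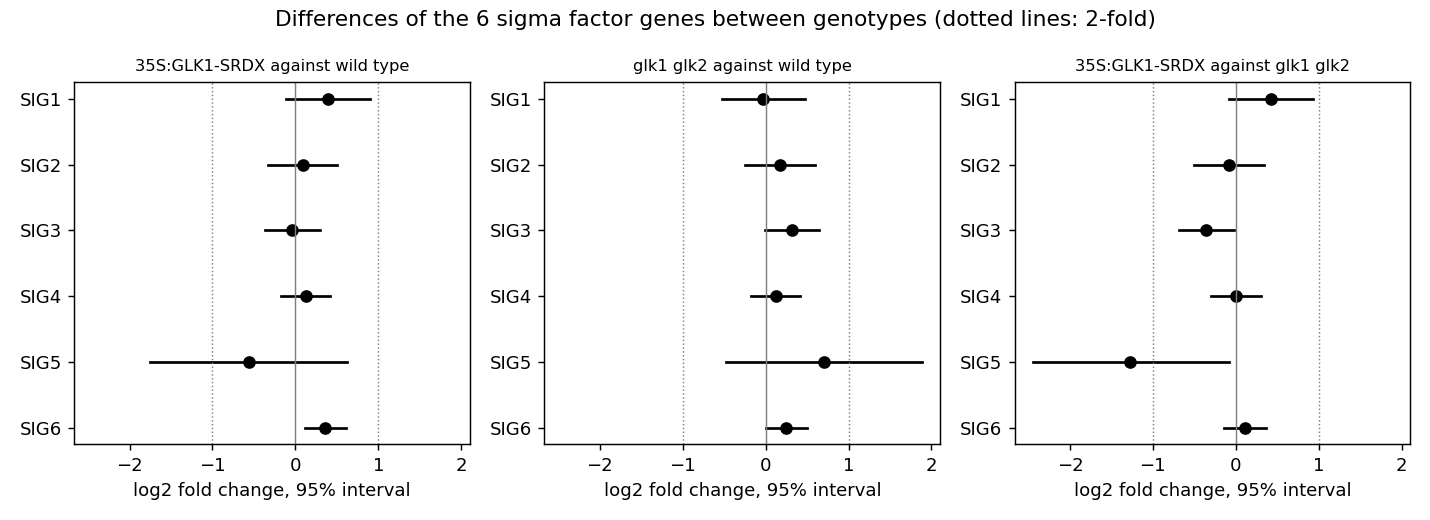
Log2 fold change of each sigma factor gene in the 3 comparisons of genotypes, with points for the limma estimate, bars for its 95% interval and dotted lines at 2-fold. The SIG5 intervals are the widest, and SIG6 in GLK1-SRDX against wild type lies above 0 with an adjusted p of 0.0589.

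Same-numbered arrays of glk1 glk2 and wild type moved together across all tested loci, so their differences were also taken number by number. For SIG3 these were 0.32, 0.51, 0.17 and 0.28 for numbers 1 to 4. For SIG5 they were 0.91, 1.06, 0.04 and 0.80, and for SIG6 0.13, 0.47, 0.13 and 0.27. These 3 genes were thus higher in glk1 glk2 in 4 of 4 same-numbered differences. SIG2 and SIG4 were higher in 3 of 4 and SIG1 in 1 of 4. How many of all loci had 4 of 4 in one direction was not counted. With the replicate number as a block, 0 of 6 passed, where 6.88% of all tested loci did in the same fit, and adjusted p was 0.0696 for SIG3, 0.0903 for SIG5 and 0.118 for SIG6. The SE of the difference in that fit was 0.07 for SIG3, 0.19 for SIG5 and 0.08 for SIG6, beside 0.15, 0.54 and 0.11 in the main fit.

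The order of the arrays was shared by the members. In both glk1 glk2 and wild type, replicate 3 held the lowest level of all 6 sigma factor genes, a position shared by 16.8% of the 20533 tested loci measured on all 12 arrays. Under 3 other scalings it was again 6 of 6, beside 15.5% to 24.9% of loci. Replicate 4 was the highest array in both genotypes for 5 of 6 genes, beside 25.9% of loci, the exception being SIG4, whose highest glk1 glk2 array was replicate 2. With quantile normalization or normexp background correction this count was 4 of 6.

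The step from replicate 3 to replicate 4 was largest for SIG5, at 6.30-fold in glk1 glk2 and 3.73-fold in wild type. For the other 5 genes it ran from 1.38-fold to 2.03-fold in glk1 glk2 and from 1.25-fold to 1.88-fold in wild type. The summed root marker level was 13.8, 10, 23.4 and 6.42 on glk1 glk2 replicates 1 to 4, against 22.2, 23.3, 20.9 and 16.1 on those of wild type. The highest glk1 glk2 root sum was thus on replicate 3 and the lowest root sum of both genotypes on replicate 4, and the part of root RNA in these steps was not tested. In GLK1-SRDX the spread was the smallest of the 3 genotypes for 6 of 6 genes, as it was for 60.7% of tested loci.

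The profile over the 12 arrays, each locus centred on its own mean, was compared with that of every other tested locus measured on all 12 arrays (20532 loci) by the root mean square (RMS) difference of the log2 values. The SIG5 profile lay nearest to FRO6, a ferric-chelate reductase (0.205), NAC3, a NAC-family transcription factor (0.227), and CCA1, a transcription factor of the morning arm of the circadian clock (0.238). The median locus was at 0.928 from SIG5. CCA1 had levels of -0.76, -0.33, -0.93 and -0.17 in GLK1-SRDX and 1.10, 0.17, -0.90 and 1.47 in glk1 glk2, against 0.34, -0.89, -1.53 and 0.84 in wild type. As for SIG5, replicate 4 was its highest array in all 3 genotypes and replicate 3 its lowest in glk1 glk2 and wild type. In GLK1-SRDX the lowest array was replicate 3 for CCA1 and replicate 1 for SIG5.

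A list of 10 clock genes, chosen after the SIG5 values were seen, was set beside it as a description. Among the 20532 other loci measured on all 12 arrays, ranked by nearness to SIG5, CCA1 was at rank 3, its morning partner LHY at rank 23 (RMS 0.315) and PRR9, a pseudo-response regulator expressed in the morning, at rank 65 (0.394). The day genes PRR7 and PRR5 were at 0.669 and 0.775. Of the evening genes, GI was at 0.882, about the distance of a locus that does not vary (0.886, the RMS of SIG5 around its own mean). TOC1 was at 1.03 and the evening complex genes ELF3, ELF4 and LUX were at 1.18, 1.23 and 1.14. From replicate 3 to replicate 4, CCA1 differed by 2.37 in glk1 glk2 and 2.37 in wild type on the log2 scale, LHY by 2.30 and 2.45, and PRR9 by 2.47 and 3.17. The steps of the day and evening genes were smaller and ran both ways. PRR7 differed by 0.52 in glk1 glk2 and 0.44 in wild type, PRR5 by 0.12 and -0.22, and GI by 0.14 and 0.29. TOC1 differed by -0.74 in glk1 glk2 and -0.58 in wild type, ELF3 by -1.07 and -0.38, ELF4 by -1.70 and -0.66, and LUX by -0.96 and -0.74. No source used here gives the hour of harvest.

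**Figure D3:**
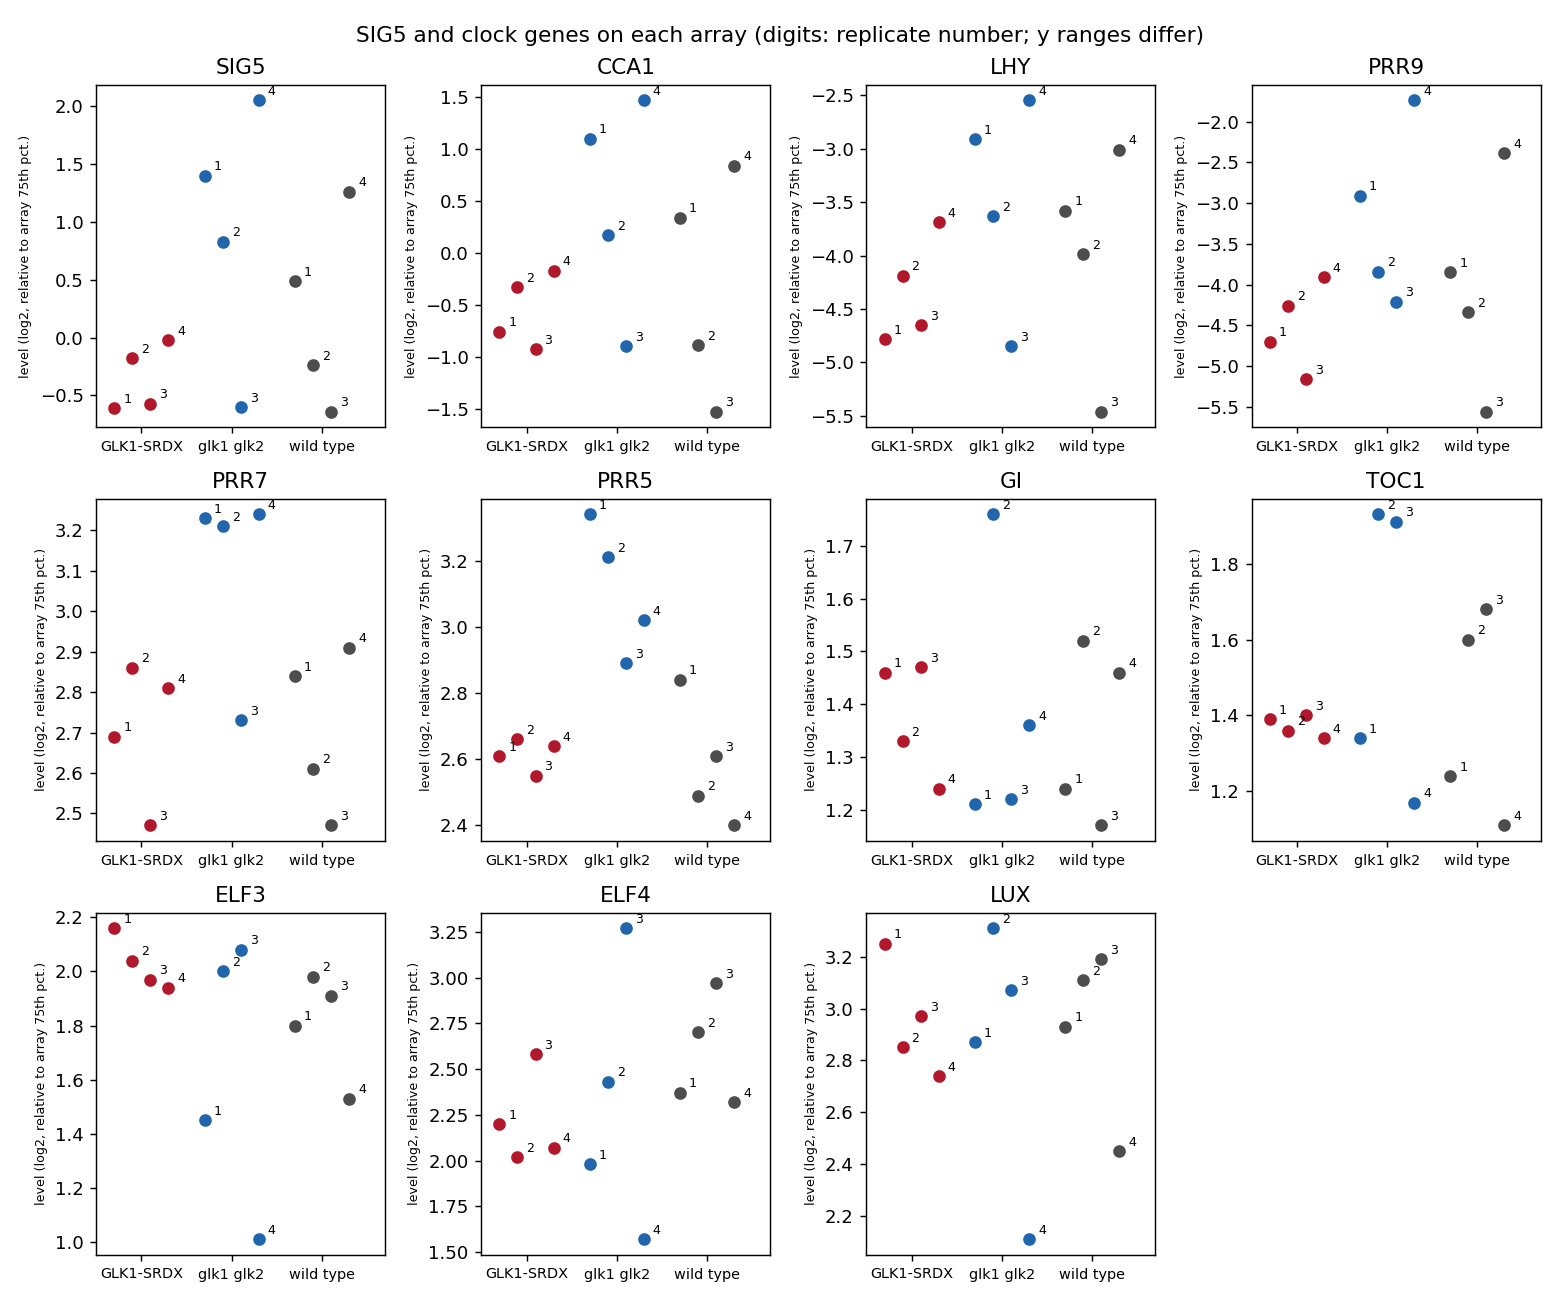
Levels of SIG5 and of the 10 clock genes on each array, with 1 panel per gene and its own vertical axis (log2 relative to the array's 75th percentile), genotypes in the order GLK1-SRDX, glk1 glk2 and wild type, with digits for replicate numbers. SIG5, CCA1, LHY, PRR9 and the day gene PRR7 have their lowest glk1 glk2 and wild-type array at replicate 3. TOC1, ELF3, ELF4 and LUX were higher on replicate 3 than on replicate 4 in both genotypes, and GI was lower.

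For the other members, neighbours were taken only from loci with a symbol, so a locus without one may lie nearer. Among these, SIG1 lay nearest to FUG1, a plastid translation initiation factor (0.0958), PPD1 (0.113) and CHLI1, a magnesium chelatase subunit of chlorophyll synthesis (0.122). SIG2 lay nearest to MDAR4 (0.063), GCP1 (0.0678) and emb2076 (0.0683), and SIG4 to PTAC4 (0.048), the plastid chaperone CLPC1 (0.0612) and SAE1B (0.0627). SIG6 lay nearest to RIF10, the plastid polynucleotide phosphorylase (0.0646), the plastid chaperone cpHsc70-1 (0.0728) and PDE338 (0.0728). SIG3 lay nearest to NPQ1, the violaxanthin de-epoxidase of photoprotection (0.0444), IAA8 (0.0738) and CAC2, a subunit of plastid acetyl-CoA carboxylase (0.0838). Among the members themselves, SIG4 and SIG6 were closest (0.12), and SIG5 and SIG6 farthest apart (0.830). The distance is not scaled, so it also depends on how much each gene varied. The RMS around the gene's own mean was 0.179 for SIG4, 0.205 for SIG6 and 0.886 for SIG5. These distances describe 12 arrays that share slides and replicate numbers.

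The rest of the nuclear-encoded plastid transcription machinery, a list of 26 genes of which 25 were tested (PRIN2 was not), held several genes that rose. In GLK1-SRDX against wild type, 15 of 25 rose and 0 fell, beside 7.89% of loci called higher and 6.40% called lower, and the median log2 fold change of the list was 0.52. Of the 13 polymerase-associated proteins 9 rose, with a median of 0.57, and of the other 12 genes 6 rose. In glk1 glk2 against wild type, 5 of 25 rose and 0 fell, beside 2.19% of loci called higher and 1.10% lower, with a list median of 0.33. Leaving out each array in turn, the count ran from 9 to 19 in GLK1-SRDX, with 9 or 10 without replicate 1, 2 or 3 of wild type or of GLK1-SRDX and 19 without glk1 glk2 replicate 3. All loci called there, in either direction, ran from 7.28% to 21.4%, the highest also without glk1 glk2 replicate 3, beside 14.3% with all arrays. In glk1 glk2 the count was 14 without glk1 glk2 replicate 3, where 15.6% of all loci were called. It was 4 or 5 without any other array, where the share was 1.22% to 3.07%, beside 3.30% with all arrays. With the authors' series value table, which divides each genotype by its own constant, the count was 5 in GLK1-SRDX and 0 in glk1 glk2. With normexp background correction it was 9 in GLK1-SRDX and 2 in glk1 glk2. All loci called were 4.40% and 0.659% with the series value table, and 4.08% and 0.707% with normexp. Both comparisons use the same wild-type arrays. The root marker sum was lower in GLK1-SRDX than in wild type, and its part in these counts was not tested.

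Among the polymerase-associated proteins, PAP9/FSD2, an iron superoxide dismutase of the plastid nucleoid, rose most in GLK1-SRDX. It averaged 1.60 ± 0.08 in GLK1-SRDX and 0.78 ± 0.14 in glk1 glk2, against 0.58 ± 0.21 in wild type (SD, n = 4 each). The difference of GLK1-SRDX from wild type was 1.03 ± 0.11 (adjusted p = 0.000375, range over 26 settings 0.000237 to 0.0183). PAP3/PTAC10, an S1-domain protein, rose by 0.72 in GLK1-SRDX (adjusted p = 0.000713) and by 0.70 in glk1 glk2 (adjusted p = 0.00351). PAP6/FLN1, a fructokinase-like protein, rose by 0.57 in GLK1-SRDX and by 0.69 in glk1 glk2 (adjusted p = 0.0101).

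PAP8/PTAC6 rose by 0.37 in GLK1-SRDX and by 0.30 in glk1 glk2 (adjusted p = 0.0319), and the second call was lost with the replicate block (0.0513) and held in 8 of 26 settings. In GLK1-SRDX, PAP5/HMR, which also acts in phytochrome signalling, rose by 0.61, PAP2/PTAC2 by 0.54, PAP12/PTAC7 by 0.65 (adjusted p = 0.0417), PAP7/PTAC14 by 0.45 and FLN2, the second fructokinase-like protein, by 0.72 (adjusted p = 0.0414). The calls of PAP5/HMR, PAP7/PTAC14, PAP12/PTAC7 and FLN2 held in 18, 13, 14 and 14 of 26 settings. With the replicate block, FLN2 also passed in glk1 glk2 (adjusted p = 0.0337).

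RPOTp, a phage-type polymerase of plastids, averaged -0.07 ± 0.11 in GLK1-SRDX and -0.29 ± 0.14 in glk1 glk2, against -0.90 ± 0.09 in wild type. It rose by 0.83 ± 0.09 in GLK1-SRDX (adjusted p = 0.000407) and by 0.61 ± 0.09 in glk1 glk2 (adjusted p = 0.00733). RPOTmp, the other phage-type polymerase on the list, did not pass. It differed from wild type by -0.07 in GLK1-SRDX (limma adjusted p = 0.865) and by 0.43 in glk1 glk2 (adjusted p = 0.341). RCB, a regulator of chloroplast biogenesis in phytochrome signalling, rose by 1.07 ± 0.20 in GLK1-SRDX (adjusted p = 0.00589), and NCP, its close relative, by 0.73 (adjusted p = 0.0114). RUG2/BSM, a protein of the mitochondrial transcription termination factor family that acts in plastids and mitochondria, rose by 0.42 in GLK1-SRDX and by 0.61 in glk1 glk2 (adjusted p = 0.00690). MTERF6, of the same family, rose by 0.40 in GLK1-SRDX (adjusted p = 0.0276, range over 26 settings 0.00561 to 0.129), a call that held in 17 of 26 settings.

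MTERF5/MDA1, a plastid member of the same family, differed between GLK1-SRDX and glk1 glk2. It averaged 0.89 ± 0.07 in GLK1-SRDX and -0.13 ± 0.21 in glk1 glk2, against 0.30 ± 0.31 in wild type. It rose by 0.59 in GLK1-SRDX (adjusted p = 0.0267), a call that held in 18 of 26 settings. In glk1 glk2 the difference was -0.43 (adjusted p = 0.155), and with the replicate block it fell there by 0.43 with an adjusted p of 0.0425, where NCP rose as well (adjusted p = 0.0425) and 7 of 25 genes were called in all, beside 6.88% of all tested loci in the same fit. Between GLK1-SRDX and glk1 glk2, MTERF5/MDA1 (1.02, adjusted p = 0.00284) and PAP9/FSD2 (0.82, adjusted p = 0.00174) were the 2 of 25 genes called, beside 5.55% of loci called higher.

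**Figure D4:**
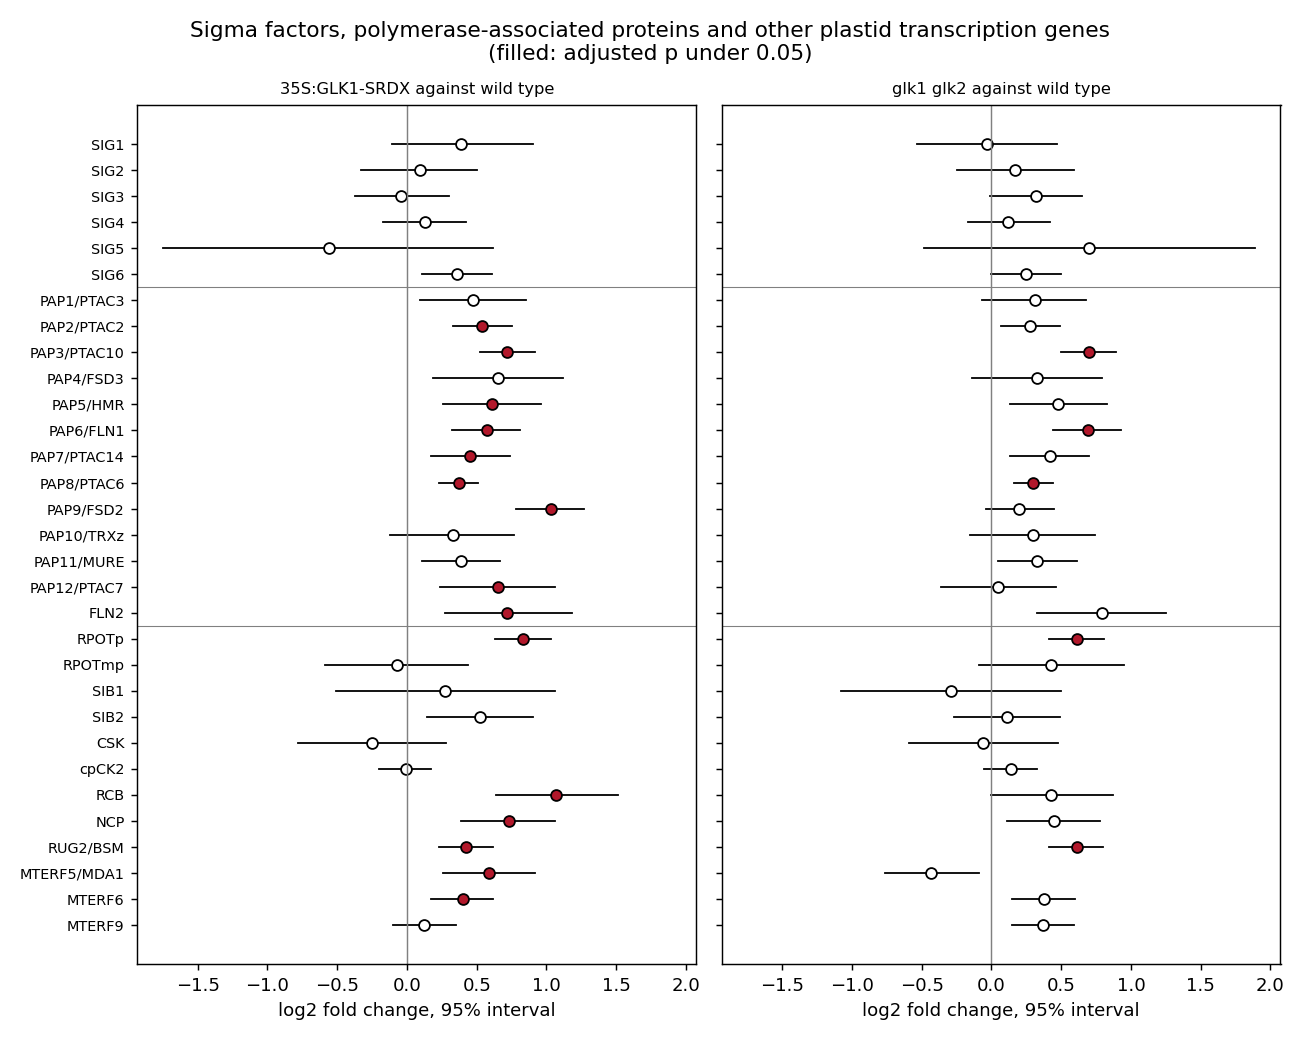
Log2 fold changes against wild type of the sigma factor genes and of the other tested plastid transcription genes, with GLK1-SRDX in the left panel and glk1 glk2 in the right, bars for the 95% interval and filled symbols for an adjusted p under 0.05. In GLK1-SRDX 15 of 25 other machinery genes passed and 0 of 6 sigma factor genes did, beside 14.3% of all tested loci. With 6 genes, a count of 0 is not set apart from that share.

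Light signalling genes, listed because light controls sigma factor expression, did not pass either. By limma, 0 of 8 were called in GLK1-SRDX against wild type, beside 14.3% of all tested loci, with 1 of 8 at an unadjusted p under 0.05, beside 30.7%. In glk1 glk2 against wild type 0 of 8 were called, beside 3.30%, with 1 of 8 unadjusted, beside 19.6%. Between GLK1-SRDX and glk1 glk2 0 of 8 were called, beside 9.27%, with 3 of 8 unadjusted, beside 24.5%. With 8 genes, a count of 0 is not set apart from these shares. The smallest p belonged to UVR8, the ultraviolet-B receptor, in GLK1-SRDX (0.22, adjusted p = 0.121), to HY5, a light-activated transcription factor, in glk1 glk2 (0.32, adjusted p = 0.182), and to CRY1, a blue-light receptor, between GLK1-SRDX and glk1 glk2 (0.33, adjusted p = 0.0733). Of a list of 12 plastid-encoded genes, 0 had a probe carrying their locus. The plastid genes that the sigma factors transcribe were therefore not analysed here.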

How the data were processed

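Per the file headers and the labels, each scanner file holds the spot intensity of 1 one-colour array with background already subtracted. The submitters' processing notes name Agilent Feature Extraction 9.1.3.1. The authors' deposited series value table is also an intensity, equal to the processed intensity divided by 1 constant per genotype (892 for GLK1-SRDX, 1077 for glk1 glk2 and 974 for wild type), linear, uncentred, with column medians of 0.0798 to 0.168. No source used here explains the constants.

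Values were log2 of processed intensity relative to the array's 75th percentile, without control and outlier spots (6 to 86 per array). Of 37478 probes, 26236 carried a locus, and 63.9% to 68.5% were well above background per array, with 0 saturated. A probe was kept if well above background on at least 4 arrays and unmarked on at least 3 per genotype, and the brightest stood for its locus (20640 loci, 20169 of them with 1 kept probe). Names came from a TAIR10.1 table, which held 20521 tested loci, 9080 with a symbol. limma 3.58.1 in R 4.3.3 was fitted to the 12 arrays together (two-sided, threshold 0.05, leaving 9 residual degrees of freedom). The same fit was run on simulated arrays that were independent of each other. That run cannot show how the fit behaves where arrays share slides or replicate numbers, as these do.

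The members, gene lists and tests were chosen with earlier results of these data known. Named genes were all 6 sigma factor genes, GLK1 and GLK2, list members that passed or had the smallest p, and the 3 nearest profiles of each member among loci with a symbol. The 10 clock genes other than CCA1 were named outside this rule, after values were seen, and so was RPOTmp. Replicate numbers come from the sample titles. Deviations of same-numbered glk1 glk2 and wild-type arrays correlated at 0.319, 0.383, 0.464 and 0.757 over loci, which met the criterion for pairs. The main fit has no block, and the block on the number is an alternative, given where it changed a call. Those of GLK1-SRDX and wild type (-0.0645, -0.20, 0.261 and 0.00866) did not meet it, nor those of GLK1-SRDX and glk1 glk2 (-0.00781, 0.195, 0.576 and -0.096). Alternatives changed background correction (normexp with an offset of 50, on median spot signals, since mean signals were not used here), scaling, filters, probe choice, samples, blocks and the moderation. The number of arrays limits the precision.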

Additional observations from a re-analysis of the deposited data

Results flagged for a closer look

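MTERF5/MDA1 and PAP9/FSD2 differed between the effects of the genotypes, by the test of the difference itself. MTERF5/MDA1 was higher in GLK1-SRDX than in glk1 glk2 by 1.02 on the log2 scale (limma adjusted p = 0.00284), with 0.59 in GLK1-SRDX and -0.43 in glk1 glk2 against the shared wild-type arrays. PAP9/FSD2 was higher by 0.82 (adjusted p = 0.00174), with 1.03 in GLK1-SRDX and 0.20 in glk1 glk2 against wild type. With median scaling and the replicate block together, both missed the threshold (adjusted p = 0.0574 and 0.0728). No sigma factor array stood far enough from its group of 4 to pass Dixon's critical value of 0.829 in 18 groups tested.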

How the results depend on the processing

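Across 26 alternatives to each of 18 sigma factor results, 15 of 468 values passed the threshold and 28 took the other sign, none of these past it. The count of sigma factor genes called in GLK1-SRDX against wild type (0) was 1 with median scaling, only 2 genotypes, the slide block, without replicate 4 of wild type and glk1 glk2, or without replicate 3 of both, 3 with median scaling and the replicate block, and 0 to 1 leaving out each array. All loci called in that comparison were 14.3% in the main fit, 22.8% with median scaling and 28.7% with the block added. The sigma factor count was 0 to 2 in glk1 glk2 against wild type and in GLK1-SRDX against glk1 glk2 leaving out each array, and 2 in the second without replicate 3 of both. Without glk1 glk2 replicate 3, where both counts were 2, all loci called were 15.6% and 13.0%, beside 3.30% and 9.27%. Other machinery genes called in GLK1-SRDX (15) were 9 with normexp, 5 with the series value table and 9 to 19 leaving out each array. In glk1 glk2 (5) they were 2 with normexp, 8 with median scaling, 0 with the series value table, 2 with only 2 genotypes, 10 without replicate 3 of both, 8 with median scaling and the replicate block, and 4 to 14 leaving out each array. Between GLK1-SRDX and glk1 glk2 (2) they were 6 without replicate 4 of both, 0 with median scaling and the block, and 2 to 4 leaving out each array. Light signalling genes called (0) were 1 and 1 with median scaling in GLK1-SRDX and glk1 glk2, 3 and 1 with the block added, and between GLK1-SRDX and glk1 glk2 1 with quantile normalization, 2 with the series value table, 1 without replicate 4 of both and 0 to 1 leaving out each array. With the replicate number as a block, the machinery counts were 12 in GLK1-SRDX, 7 in glk1 glk2 and 2 between them, and the sigma factor counts 0. In GLK1-SRDX against wild type, whose numbers do not pair, the block ended the calls of PAP7/PTAC14 (0.0666), RUG2/BSM (0.0509), MTERF5/MDA1 (0.0714) and MTERF6 (0.0549) and added PAP11/MURE (0.0455) and GLK1 (0.0414), all adjusted p by limma. Apart from these and the calls of glk1 glk2 given with the results, the block changed no call of the members, GLK genes or machinery genes.

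Signs turned for SIG1 in glk1 glk2 (0.06 normexp, 0.16 median scaling, 0.16 with the block added, 0.00 without replicate 4 of both, -0.17 to 0.14 leaving out each array), SIG2 and SIG4 in glk1 glk2 (-0.02 and -0.06 with the series value table), SIG2 in GLK1-SRDX (-0.02 normexp, -0.02 without replicate 3 of both, -0.02 to 0.14 leaving out each array) and SIG3 in GLK1-SRDX (0.08 normexp, 0.15 median scaling, 0.15 with the block added, 0.07 series value table, 0.04 without replicate 4 of both, -0.12 to 0.04 leaving out each array). Between GLK1-SRDX and glk1 glk2 they turned for SIG4 (0.00 median scaling, 0.00 with the block added, -0.14 without replicate 3 of both, -0.14 to 0.07 leaving out each array) and SIG2 (0.21 series value table, 0.07 without replicate 4 of both, -0.28 to 0.07 leaving out each array). The cause was not tested.

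All loci called in GLK1-SRDX against wild type (2948) were 842 with normexp, 4712 with median scaling, 909 with the series value table and 1502 to 4420 leaving out each array. In glk1 glk2 against wild type (681) they were 146, 1944 and 136 under the same settings, 115 with only 2 genotypes, 1420 with the replicate block and 252 to 3222 leaving out each array, the highest without glk1 glk2 replicate 3. Between GLK1-SRDX and glk1 glk2 (1913) they were 288 with normexp, 1205 with median scaling, 715 with the block and 996 to 2676 leaving out each array. Median scaling shifted the median of all loci by 0.20 against wild type, and 79.9% of calls in GLK1-SRDX and 91.5% in glk1 glk2 were then higher, beside 55.2% and 66.5%. With the series value table these shares were 61.8% and 2.94%, and 90.5% between GLK1-SRDX and glk1 glk2, beside 59.9%. The 3 settings leaving out numbered arrays of both genotypes, or joining median scaling to the block, were chosen after seeing the data.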

Other observations

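NPQ1, the nearest profile to SIG3 among loci with a symbol, is the gene next to SIG2 in the TAIR10.1 gene order. Its RMS distance to SIG2 was 0.158, against 0.0444 to SIG3. PRR5, a day-phased clock gene from the list chosen after the values were seen, was higher in glk1 glk2 than in wild type by 0.53 on the log2 scale (limma adjusted p = 0.0341), and differed by 0.03 in GLK1-SRDX (adjusted p = 0.890).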
